A study of Mus musculus with 2 samples.

Results

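Runx2, Sp7, Alpl, Bglap, Bglap2, Ibsp, Spp1, Dmp1 and Phex are the osteoblast lineage genes described here, 9 of the 17938 genes listed for at least 1 of 2 plates of single periosteal cells. They were chosen by name, as genes that mark steps from a bone-forming progenitor to a matrix-embedded cell. All 9 were listed on the 6-week plate and 8 on the mixed plate, where Sp7 was missing. In αSMACreER/Ai9 mice, Cre is driven by the αSMA promoter, and tamoxifen switches on the Tomato reporter in αSMA-expressing cells and all their descendants. Tom+, DAPI-negative cells from the periosteum of the tibia and femur were sorted 1 per well from pools of 2 to 3 female mice, after tamoxifen in 2 doses of 75 mg/kg. For the 2-day time point, the mice were αSMACreER/Ai9/Col2.3GFP animals aged 10.3 weeks, and their cells shared a plate (the mixed plate) with those of the 13-week time point. For the 6-week time point, αSMACreER/Ai9/Col2.3GFP animals were used at 14.4 weeks of age, 43 days after tamoxifen, and the cells had a plate of their own (the 6-week plate). For the 13-week time point, the animals were αSMACreER/Ai9/R26-M2rtTA/TetOP-H2B-GFP mice aged 20.1 weeks, 96 days after tamoxifen, which had also been given doxycycline for 5 weeks from postnatal day 11. With a single pool behind each time point, no test between time points was possible. At 13 weeks, chase time, age, doxycycline and genotype cannot be told apart, and at 6 weeks the same holds for the plate, the chase time and the age of the mice.

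Osteoblasts arise from mesenchymal progenitors under the transcription factor Runx2 and then Sp7 (osterix), which acts downstream of it. Alpl encodes tissue-nonspecific alkaline phosphatase, which removes the mineralization inhibitor pyrophosphate and appears early in the lineage, although it is also known from capillary endothelium and other tissues. Mature osteoblasts secrete osteocalcin (Bglap, Bglap2) and bone sialoprotein (Ibsp), while osteopontin (Spp1) is made by osteoblasts and by several other cell types. Dmp1 and Phex control phosphate and mineral and are best known from osteocytes, the cells buried in bone. Runx2, Sp7 and Alpl are called early genes below and the other 6 genes late genes.

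Of the 600 wells named for a time point, 503 held 200 or more genes and were kept, namely 181 of 192 at 2 days, 189 of 216 at 6 weeks and 133 of 192 at 13 weeks. The medians were 795, 672 and 726 UMIs (unique molecular identifiers, 1 per captured transcript molecule) per kept well, and the totals were 171209, 156763 and 117824 UMIs. At this depth, a gene without a UMI in a well is not shown to be absent from the cell. The αSMA gene Acta2, whose promoter drives the label, had a UMI in 22.1% of kept wells at 2 days, 15.3% at 6 weeks and 28.6% at 13 weeks. Levels below are UMIs per 10000 UMIs over pooled kept wells, with exact Poisson intervals at 95%, and shares of wells have exact Clopper-Pearson intervals. Both cover counting error only.

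Bglap and Bglap2 are neighboring copies of the osteocalcin gene on the minus strand of chromosome 3 (GRCm38), Bglap at 88383501-88384464 and Bglap2 at 88377736-88378699, with the related gene Bglap3 at 88368616-88372743. Their coding sequences, spliced from exons of the reference annotation, are shown because the 2 counts may not be fully separable, with the 4 differing bases of 288 in capitals:

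Bglap: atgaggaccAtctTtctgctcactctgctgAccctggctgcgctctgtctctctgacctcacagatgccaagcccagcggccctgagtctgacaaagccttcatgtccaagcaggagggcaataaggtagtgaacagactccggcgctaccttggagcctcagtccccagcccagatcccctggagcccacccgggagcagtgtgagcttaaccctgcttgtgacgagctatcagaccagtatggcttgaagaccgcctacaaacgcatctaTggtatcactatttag
Bglap2: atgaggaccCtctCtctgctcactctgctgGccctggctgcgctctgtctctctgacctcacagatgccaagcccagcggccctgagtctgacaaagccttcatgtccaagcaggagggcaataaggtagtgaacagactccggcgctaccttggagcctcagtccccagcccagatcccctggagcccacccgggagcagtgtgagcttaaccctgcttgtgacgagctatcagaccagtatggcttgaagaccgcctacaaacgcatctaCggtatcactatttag

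The coding identity was 98.6%. Of the 391 stretches of 50 bases in the annotated Bglap transcript, 292 (74.7%) also occur in the Bglap2 transcript, and 292 of the 422 in Bglap2 (69.2%) occur in Bglap. Toward the 3′ end, which these libraries read, 100 of the last 150 stretches of each gene (66.7%) are shared. Reads could therefore be split between the copies or left uncounted, and both counts are uncertain. Dmp1 (104202613-104214102), Ibsp (104299171-104311469) and Spp1 (104435118-104441050) lie together on the plus strand of chromosome 5, within 238 kb. Alpl lies on chromosome 4 (137741733-137796384), Runx2 on chromosome 17 (44495987-44814797), Sp7 on chromosome 15 (102356606-102367182) and Phex on chromosome X (157162075-157415312), all on the minus strand.

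The 250 bases before the start of Bglap, Ibsp and Spp1, the late genes with the most wells at 6 weeks, are given 5′ to 3′ on the gene's strand from RefSeq (GRCm38.p6), at chr3:88384467-88384716 (minus), chr5:104299037-104299286 (plus) and chr5:104434861-104435110 (plus). Capitals mark a match to the core Runx motif TGTGGT on either strand (ACCACA when read on the other strand):

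Bglap: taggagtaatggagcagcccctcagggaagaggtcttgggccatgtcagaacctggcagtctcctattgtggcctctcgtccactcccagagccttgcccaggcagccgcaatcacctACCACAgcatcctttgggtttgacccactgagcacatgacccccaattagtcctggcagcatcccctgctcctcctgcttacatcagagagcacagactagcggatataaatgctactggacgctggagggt
Ibsp: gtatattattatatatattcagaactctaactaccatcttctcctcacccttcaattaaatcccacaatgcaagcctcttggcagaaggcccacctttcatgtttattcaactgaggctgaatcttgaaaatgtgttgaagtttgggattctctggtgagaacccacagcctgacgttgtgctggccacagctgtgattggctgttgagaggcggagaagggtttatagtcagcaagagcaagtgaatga
Spp1: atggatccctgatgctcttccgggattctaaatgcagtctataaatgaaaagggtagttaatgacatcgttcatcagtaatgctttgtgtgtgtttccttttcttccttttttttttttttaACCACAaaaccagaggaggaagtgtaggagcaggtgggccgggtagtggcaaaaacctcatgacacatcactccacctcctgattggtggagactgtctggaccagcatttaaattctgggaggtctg

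The match began 132 bases before the start in Bglap and 128 bases before it in Spp1, and Ibsp had none in this window. Starts are those of RefSeq, and the Ibsp window, which ends at 104299286, runs past the GENCODE gene start of 104299171 given above. Of the 7 members with a RefSeq promoter (Bglap2 and Sp7 had no entry), 4 held a match, the other matches being in Runx2 and in 1 of the promoters of Dmp1. By promoter it was 4 of 10, since Alpl, Spp1 and Dmp1 have a second promoter, and that of Spp1 held none. The motif was present in 14.0% of all 32851 promoters of the same length and in 15.9% of the 27025 genes with one. A match describes the letters only.

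The early genes were sparse at every time point. Runx2 had 9 UMIs in 8 wells at 2 days, 9 in 8 wells at 6 weeks and 2 in 2 wells at 13 weeks, which is 0.526 [0.240–0.998], 0.574 [0.263–1.09] and 0.170 [0.0206–0.613] per 10000. These 3 intervals overlap. Sp7 had 2 UMIs in 2 wells at 6 weeks and none at 2 days or 13 weeks, where a count of 0 allows up to 0.175 and 0.255 per 10000. Alpl had 11 UMIs in 6 wells at 2 days, 19 in 16 wells at 6 weeks and 10 in 6 wells at 13 weeks. Its levels of 0.642 [0.321–1.15], 1.21 [0.730–1.89] and 0.849 [0.407–1.56] per 10000 were not separable either, and the ratio of 13 weeks to 2 days, both on the mixed plate, was 1.32 [0.503–3.43]. Summed, the early genes stood at 1.17 [0.714–1.80], 1.91 [1.29–2.73] and 1.02 [0.526–1.78] per 10000.

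The late genes differed far more between time points. Bglap had 253 UMIs in 20 wells at 2 days, 163 UMIs in 107 wells at 6 weeks and 9 UMIs in 9 wells at 13 weeks, or 14.8 [13.0–16.7], 10.4 [8.86–12.1] and 0.764 [0.349–1.45] per 10000. Bglap2 had 126 UMIs in 9 wells, 68 in 36 wells and 2 in 2 wells, or 7.36 [6.13–8.76], 4.34 [3.37–5.50] and 0.170 [0.0206–0.613] per 10000. Both osteocalcin genes thus had their highest pooled level at 2 days, in few wells, and their widest detection at 6 weeks. Ibsp had 20 UMIs in 3 wells, 137 in 94 wells and 4 in 2 wells, or 1.17 [0.714–1.80], 8.74 [7.34–10.3] and 0.339 [0.0925–0.869] per 10000. Spp1 had 20 UMIs in 7 wells, 170 in 112 wells and 11 in 8 wells, or 1.17 [0.714–1.80], 10.8 [9.28–12.6] and 0.934 [0.466–1.67] per 10000. For Ibsp and Spp1 the 6-week level stood clear of the others, while the intervals at 2 days and 13 weeks overlapped. The osteocyte genes were near the limit of detection, with Dmp1 at 0, 4 and 1 UMIs and Phex at 4, 3 and 0 UMIs over the 3 time points.

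**Figure D1:**
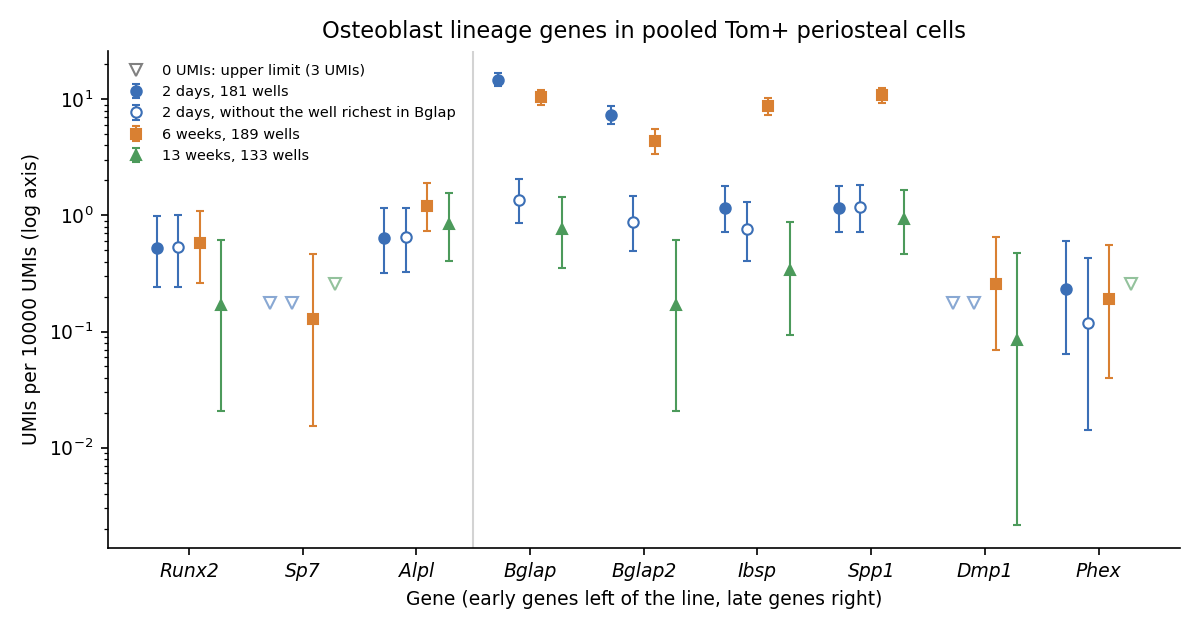
UMIs per 10000 UMIs (log axis) of the 9 genes over pooled kept wells at 2 days (circles), 6 weeks (squares) and 13 weeks (triangles), with exact 95% Poisson intervals and open downward triangles for the limit that 0 UMIs allows. Open circles leave out the 2-day well richest in Bglap, which lowers the 2-day level of Bglap from 14.8 to 1.36 and leaves the early genes where they were.

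A single 2-day well held most of the osteocalcin of that time point. This well, in row D and column 15, had 1836 UMIs and ranked 16 by depth among the 181 kept 2-day wells. It held 230 of the 253 Bglap UMIs (90.9%) and 111 of the 126 Bglap2 UMIs (88.1%), whereas for the 1313 genes with 20 or more UMIs at 2 days the richest well held a median of 8.0%. It also held 7 UMIs each of Bglap3 and Ibsp, 2 of Phex, 90 of the collagen gene Col1a1, 149 of Col1a2 and 97 of the matrix gene Sparc, and none of Runx2, Alpl or Spp1. Its chondrocyte list stood at 27.2 per 10000, against 1.58 over all kept 2-day wells with this one included, which in 1836 UMIs is few UMIs. The fibroblast or progenitor list stood at 43.6 against 207 and the skeletal muscle list at 5.45 against 18.5. Its tendon or fibrous, perivascular and endothelial lists were at 0. Late genes made up 350 of its UMIs (19.1%). The 230 Bglap UMIs rested on 1909 reads, or 8.30 reads per UMI, against 3.83 for all genes in the well. In the other 313 kept wells of the mixed plate, Bglap came to 32 UMIs spread over 28 wells.

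Without this well the 2-day level fell to 1.36 [0.861–2.04] per 10000 for Bglap, 0.886 [0.496–1.46] for Bglap2 and 0.768 [0.409–1.31] for Ibsp, while Spp1 stood at 1.18. The summed late level at 2 days went from 24.7 [22.4–27.2] to 4.31 [3.38–5.42] per 10000, beside 34.8 [31.9–37.8] at 6 weeks and 2.29 [1.51–3.33] at 13 weeks. On the mixed plate, the ratio of 13 weeks to 2 days for Bglap was 0.0517 [0.0234–0.0997] with the well and 0.563 [0.229–1.26] without it. For the late genes together it was 0.0928 [0.0604–0.137] with the well and 0.532 [0.329–0.837] without it, and for the early genes 0.872 [0.389–1.87] and 0.863 [0.384–1.85]. As a sum over 27 and 73 UMIs, the late genes were lower at 13 weeks than at 2 days without the well, while Bglap alone and Ibsp alone (0.442 [0.105–1.43]) did not differ beyond counting error. The Bglap2 ratio was 0.192 [0.0213–0.824], on 2 against 15 UMIs, which is below the minimum of 20 UMIs used for ratios. Among these 15 UMIs, 6 were in 1 well and 3 in another. Without the Bglap-rich well, 8 of 180 wells at 2 days held Bglap2 (1.94–8.57%), against 2 of 133 at 13 weeks (0.183–5.33%). The intervals by well overlap, so Bglap2 alone was not shown to be lower at 13 weeks. Of the 73 late UMIs at 2 days, 12, 10, 8 and 8 were in 4 wells, and the share of wells with a late gene did not separate the time points (18.3% [13.0–24.8] without the Bglap-rich well and 13.5% [8.22–20.5]).

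Of the 2365 genes with 20 or more UMIs at 2 days and 13 weeks together, 15% differed by 2-fold or more, and 8.46% were lower at 13 weeks. Among the 5 members with as many UMIs, 3 were lower (Bglap, Bglap2 and Ibsp) and 2 were within 2-fold (Alpl and Spp1). Without the Bglap-rich well, 3 members still had 20 UMIs, and 0 of them passed 2-fold, while Bglap2 and Ibsp fell below the minimum. From 10 UMIs on without that well, 3 of 6 members were lower by 2-fold or more (Runx2, Bglap2 and Ibsp) and 0 higher. Among all 4771 such genes, 11.6% were lower and 11.5% higher. Across plates, 2812 genes had 20 or more UMIs at 6 weeks and 2 days, 12.8% differed by 2-fold or more, 8.39% were higher at 6 weeks and 4.45% were lower. Of the 5 members with as many UMIs, 2 were higher by 2-fold or more and 0 lower, and without the Bglap-rich well 4 were higher. Ibsp, at a ratio of 7.48 [4.66–12.6], and Spp1, at 9.28 [5.83–15.6], were the higher members. Per 10000 reads the gaps were smaller, with Ibsp at 0.861 at 2 days and 1.91 at 6 weeks and Spp1 at 0.768 and 2.21. Bglap was lower at 6 weeks than at 2 days with all wells (0.704 [0.574–0.860]) and higher without the Bglap-rich well (7.66 [4.93–12.4]), and Bglap2 turned in the same way, from 0.589 [0.432–0.798] to 4.90 [2.77–9.23]. Alpl had a ratio of 1.89 [0.853–4.39]. These values are shares of counts in 1 pool per time point and carry no replicate error.

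In shares of wells, an early gene was seen in 6.63% [3.47–11.3] of kept wells at 2 days, 13.2% [8.75–18.9] at 6 weeks and 6.02% [2.63–11.5] at 13 weeks. For a late gene, the corresponding shares were 18.8% [13.4–25.2], 90.5% [85.4–94.3] and 13.5% [8.22–20.5]. With each well thinned to 300 UMIs, which left 175, 182 and 126 wells, the early shares were 1.71%, 8.24% and 3.17% and the late shares 9.14%, 61.0% and 6.35%. For late genes, the 6-week share stood clear of the others at equal UMIs per well. For early genes, the thinned intervals overlapped (0.355–4.93%, 4.69–13.2% and 0.872–7.93%). Thinning did not equalize reads per UMI, which were 5.02, 7.65 and 5.50 over all genes.

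**Figure D2:**
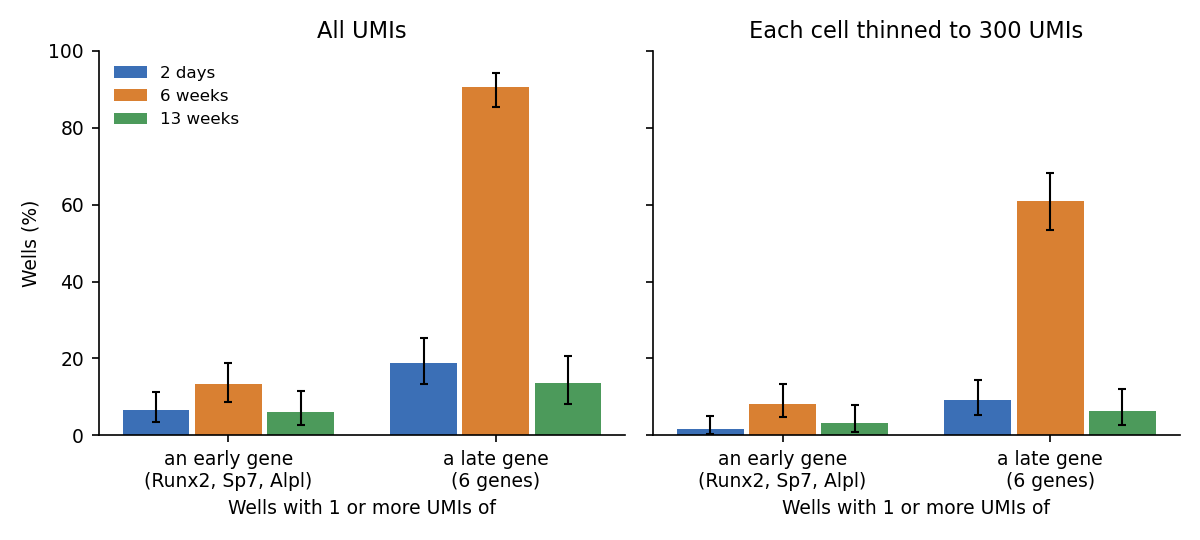
Percent of wells with 1 or more UMIs of an early gene or of a late gene at 2 days, 6 weeks and 13 weeks, with all UMIs on the left and each well thinned to 300 UMIs on the right; error bars are exact 95% intervals. The late share at 6 weeks is 90.5% with all UMIs and 61.0% after thinning, above both other time points in each panel.

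Early and late genes were seen in the same well in 4 wells at 2 days (2.21%), 21 at 6 weeks (11.1%) and 1 at 13 weeks (0.752%). At 2 days, a late gene was seen in 4 of the 12 wells with an early gene (33.3% [9.92–65.1]) and in 30 of the 169 others (17.8% [12.3–24.4]). These intervals overlap, and the wells with an early gene were deeper, at a median of 1976 against 779 UMIs. At 13 weeks the counts were 1 of 8 (12.5%) and 17 of 125 (13.6%), with medians of 1508.5 and 648 UMIs. At 6 weeks they were 21 of 25 (84.0%) and 150 of 164 (91.5%), with medians of 663 and 672.5 UMIs. With the early genes pooled, wells with one were not shown to hold a late gene more often at any time point. For Alpl alone at 2 days, wells with it were deeper than those without (median 1976 against 779 UMIs). Bglap2 was in 4 of the 6 Alpl wells (66.7% [22.3–95.7]) and in 5 of the 175 others (2.86% [0.934–6.54]), and Ibsp in 2 of the 6 (33.3% [4.33–77.7]) and in 1 of the others (0.571% [0.0145–3.14]). For Bglap the intervals overlapped (50% [11.8–88.2] against 9.71% [5.76–15.1]), and Spp1 and Phex were in 0 of the 6 Alpl wells (up to 45.9%). Within the 6 Alpl wells, the intervals of these late genes all overlapped, so a difference among the late genes was not shown.

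Among late genes, co-detection on the mixed plate was limited to a few wells. At 2 days, 4 of 181 wells (2.21%) held 2 or more late genes, with Bglap and Bglap2 counted as 2 although their counts may not be fully separable. The well in row E and column 9 (1684 UMIs) had 3 UMIs each of Bglap and Bglap2, 6 of Ibsp and 1 of Alpl. In row H and column 2, a well of 2630 UMIs had 2 UMIs of Bglap, 1 of Bglap2, 7 of Ibsp and 1 each of Alpl and Runx2. In row C and column 14, a well of 2268 UMIs had 2 UMIs of Bglap, 6 of Bglap2, 2 of Alpl and 1 of Runx2. It held no late gene other than the osteocalcin genes. With the Bglap-rich well included, all 3 Ibsp wells at 2 days also held both osteocalcin genes, each with 6 or 7 Ibsp UMIs. The 3 wells other than the Bglap-rich one also held Alpl, and 2 of them Runx2. By contrast, 16 of the 20 Bglap wells at 2 days had exactly 1 Bglap UMI. At 13 weeks 2 of 133 wells (1.5%) held 2 or more late genes, and all 9 Bglap wells had exactly 1 UMI. The well in row K and column 19 (886 UMIs) carried 3 UMIs of Ibsp and 1 each of Bglap, Spp1 and Dmp1, and the well in row K and column 12 carried 1 each of Bglap and Ibsp.

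On the mixed plate, Spp1 and Bglap were seen together in 1 well. At 2 days the 7 Spp1 wells held 8, 5, 3, 1, 1, 1 and 1 UMIs of Spp1, and none of them held Bglap, Bglap2 or Ibsp. All 7 held UMIs of the tendon or fibrous list (9 genes, among them Tnmd and Fmod, which encode the tendon proteins tenomodulin and fibromodulin), with 1 to 51 UMIs and a median of 29. Fmod was seen in 7 and Tnmd in 6 of these wells. The list is widespread, with a UMI in 132 of the 174 other 2-day wells. The list stood at 236 [204–271] per 10000 in the Spp1 wells against 109 [104–114] in the other 2-day wells, whose median depth was 784 UMIs against 1353 in the Spp1 wells. At 13 weeks all 8 Spp1 wells held UMIs of the list (1 to 63, median 15.5), at 208 [180–240] against 89.9 [84.3–95.7] per 10000, and 1 of the 8 held Bglap. Counted by well, Spp1 was in 6 of 85 wells with 3 or more UMIs of the list (7.06% [2.63–14.7]) and 1 of 96 others (1.04% [0.0264–5.67]) at 2 days, and in 6 of 56 (10.7% [4.03–21.9]) and 2 of 77 (2.60% [0.316–9.07]) at 13 weeks. These intervals overlap at both time points.

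The genes counted beside Alpl are given for each time point. At 13 weeks all 6 Alpl wells held UMIs of the endothelial list (10 genes, among them Pecam1, which encodes the endothelial adhesion molecule CD31), with 3 to 30 UMIs and a median of 6. Pecam1 itself was seen in 4 of them and the pericyte gene Rgs5 in 5, whereas Col1a1 was seen in 2 and a late gene in 0. The endothelial list stood at 70.1 [54.4–89.1] per 10000 in these wells against 10.1 [8.27–12.1] in the other 13-week wells, and the perivascular list at 92.1 [73.9–113] against 38.3 [34.7–42.2]. Seen from the other side, Alpl was detected in 6 of the 17 wells with 3 or more endothelial UMIs (35.3% [14.2–61.7], median 1132 UMIs) and in 0 of the 116 others (up to 3.13% by the exact interval, median 639.5 UMIs). With 3 or more perivascular UMIs, Alpl was in 6 of 42 13-week wells (14.3% [5.43–28.5]), against 0 of 91 others (up to 3.97%). The cutoff of 3 UMIs was chosen after the data had been seen. At 2 days the endothelial list had a UMI in 2 of the 6 Alpl wells, Col1a1 in all 6 (median 42 UMIs) and a late gene in 4. Alpl was also seen in 5 of the 35 2-day wells with 3 or more perivascular UMIs (14.3% [4.81–30.3], median 712 UMIs) and in 1 of the 146 others (0.685% [0.0173–3.76], median 827.5 UMIs). Rgs5 itself was in 1 of the 6 Alpl wells at 2 days, unlike at 13 weeks. At 6 weeks, Alpl was in 16 wells, of which 6 had an endothelial UMI and 13 had Ibsp (81.3% [54.4–96.0]), against 81 of the 173 wells without Alpl (46.8% [39.2–54.5]). The shares of the other late genes were not all higher in wells with Alpl, with Bglap in 8 of 16 (50% [24.7–75.3]) against 57.2% [49.5–64.7], Spp1 in 6 of 16 (37.5% [15.2–64.6]) against 61.3% [53.6–68.6] and Bglap2 in 6 of 16 (37.5% [15.2–64.6]) against 17.3% [12–23.8]. For all 4 late genes the intervals with and without Alpl overlapped, for Ibsp only between 54.4% and 54.5%. By well at 6 weeks, Alpl was in 4 of 15 with 3 or more endothelial UMIs (26.7% [7.79–55.1]) and in 12 of 174 others (6.90% [3.61–11.7]). For the perivascular list it was 6 of 39 (15.4% [5.86–30.5]) and 10 of 150 (6.67% [3.24–11.9]), and both pairs of intervals overlap. The part played by endothelial or perivascular cells among the sorted cells in the Alpl level was not tested.

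**Figure D3:**
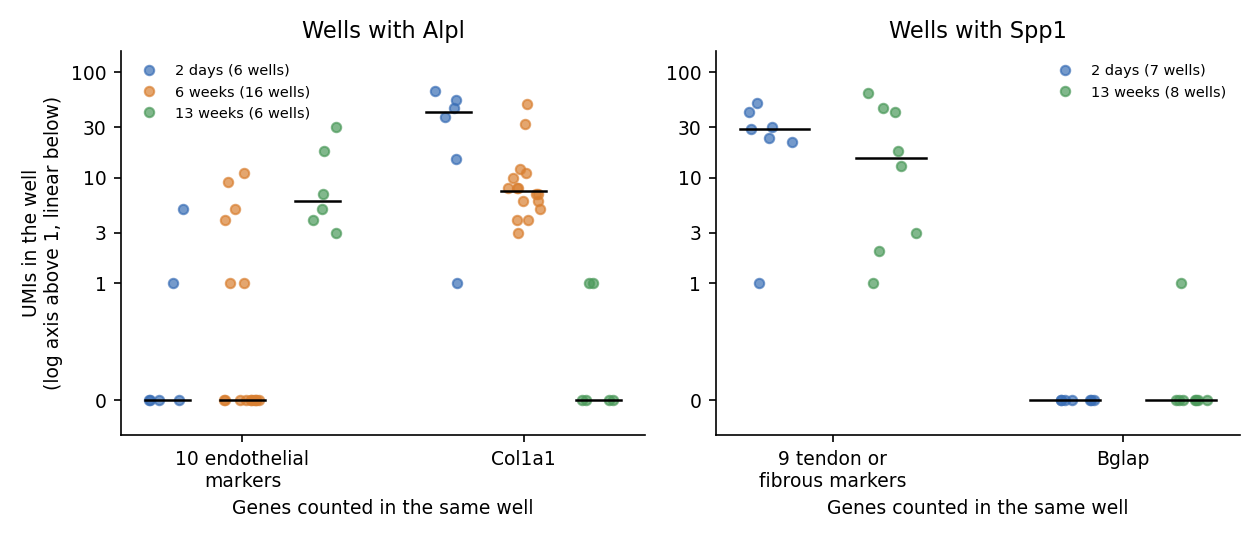
UMIs in single wells (log axis above 1, linear below) of the 10 endothelial markers and Col1a1 in wells with Alpl, and of the 9 tendon or fibrous markers and Bglap in wells with Spp1; points are wells and bars are medians. The 6 Alpl wells at 13 weeks hold 3 to 30 endothelial UMIs and at most 1 of Col1a1, and the 7 Spp1 wells at 2 days hold tendon or fibrous UMIs and no Bglap.

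The 6-week plate had another pattern, in which nearly every well held 1 or a few UMIs of the late genes. Bglap was seen in 107 of 189 wells, with 1 UMI in 69, 2 in 24, 3 in 10 and 4 in 4 of them. Ibsp had 1 UMI in 62 of its 94 wells and at most 5, and Spp1 had 1 UMI in 78 of its 112 wells and at most 9. No well at 6 weeks came near the Bglap-rich well at 2 days. At least 2 late genes, with Bglap and Bglap2 counted apart, were seen in 122 wells (64.6%), but detection of one late gene went little with that of another. Ibsp was in 50.5% [40.6–60.3] of wells with Bglap and in 48.8% [37.6–60.1] of those without, and Spp1 in 61.7% [51.8–70.9] and 56.1% [44.7–67.0]. Wells that stood out were few. The well in row L and column 5 (854 UMIs) had 16 UMIs of Bglap2 and 4 of Bglap. In row I and column 2, a well of 900 UMIs had 7 of Bglap2, 5 of Ibsp, 4 of Bglap and 56 of Col1a1. Another well, in row K and column 20 (2003 UMIs), had 9 UMIs of Spp1, and the well in row N and column 22 (2421 UMIs) had 6, together with 7 and 26 UMIs of Tnmd.

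The number of late UMIs in a 6-week well followed the depth of the well only in part. Split by total UMIs into groups of 63, wells with a mean of 375, 665 and 1448 UMIs of all genes held a mean of 2.22 [1.87–2.62], 2.57 [2.19–3.0] and 3.86 [3.39–4.37] late UMIs. As a share of the total, the late genes fell from 59.2 [49.8–69.9] through 38.7 [32.9–45.1] to 26.6 [23.4–30.2] per 10000. Ibsp stayed at 0.619 [0.440–0.846], 0.794 [0.589–1.05] and 0.762 [0.562–1.01] UMIs per well over the 3 groups, while Bglap and Spp1 reached 1.17 [0.922–1.47] and 1.21 [0.95–1.51] in the deepest. On the mixed plate, 2-day groups of 60 wells without the Bglap-rich well, with a mean of 440, 795 and 1588 UMIs, held 10, 16 and 47 late UMIs. There the late genes were 3.79 [1.82–6.97], 3.35 [1.92–5.45] and 4.93 [3.62–6.56] per 10000, intervals that overlap. Bglap alone had 8, 6 and 9 UMIs in these groups, or 3.03 [1.31–5.98], 1.26 [0.462–2.74] and 0.945 [0.432–1.79] per 10000. In the 13-week groups the late genes had 5, 13 and 9 UMIs, or 2.70 [0.877–6.30], 4.03 [2.15–6.89] and 1.34 [0.614–2.55] per 10000, with 3 UMIs of Bglap in each. By plate row of the 6-week plate, from H to P, the mean was between 2.26 and 3.33 late UMIs per well.

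**Figure D4:**
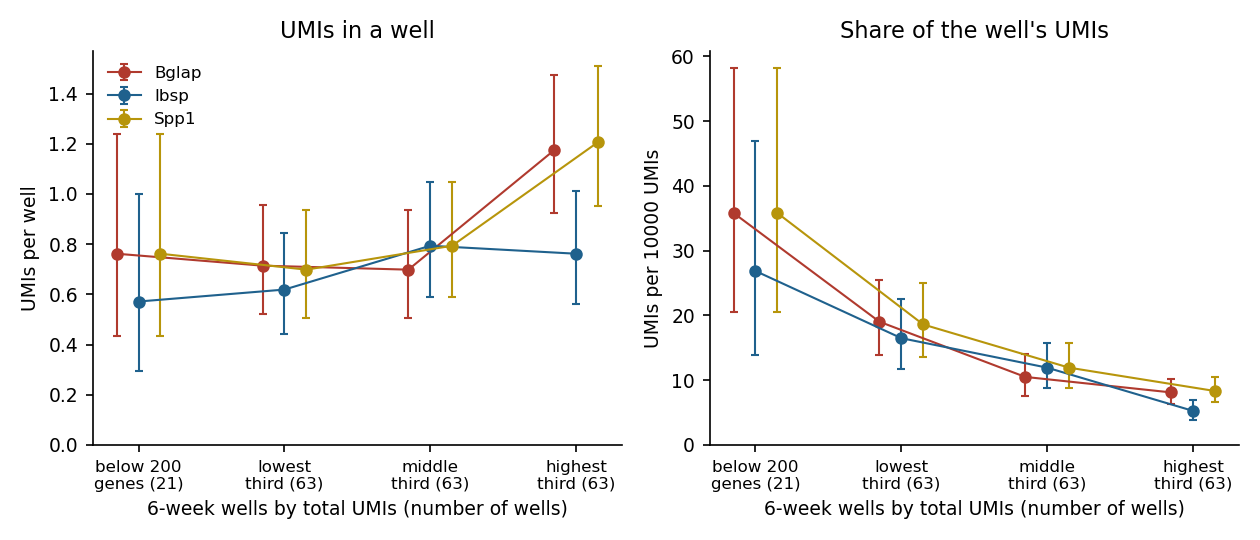
Mean UMIs per well (left) and UMIs per 10000 UMIs (right) of Bglap, Ibsp and Spp1 in 6-week wells grouped by depth, from wells below 200 genes to the deepest of 3 groups of kept wells, with exact 95% Poisson intervals. Below 200 genes Bglap stands at 0.762 UMIs per well, close to 0.714 in the shallowest of 3 groups of kept wells, while its share of the UMIs falls with depth.

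Wells below 200 genes were set beside the kept wells as a guide to RNA shared between wells. At 6 weeks, 20 of the 21 such wells with any UMI (95.2% [76.2–99.9], median 222 UMIs) held a late gene, at 2.24 UMIs per well and 105 [77.3–140] per 10000. Bglap was in 14 of them (66.7%), Spp1 in 13 (61.9%) and Ibsp in 10 (47.6%), shares close to those of kept wells (56.6%, 59.3% and 49.7%) at a lower depth. At 13 weeks, 5 of the 58 wells below 200 genes (8.62% [2.86–19.0], median 170 UMIs) held a late UMI, 5.19 [1.69–12.1] per 10000. At 2 days, none of the 11 did, where 0 of 2590 UMIs allows up to 11.6 per 10000. Early genes had 2 UMIs in these wells, both Alpl at 6 weeks.

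Late genes were also counted in wells with markers of other cell types. At 6 weeks, a late gene was seen in 12 of 15 wells with 3 or more endothelial UMIs (80.0% [51.9–95.7], median 948 UMIs), in 22 of 24 with 3 or more muscle satellite UMIs (91.7% [73.0–99.0], median 938 UMIs) and in 9 of 10 with 3 or more skeletal muscle UMIs (90.0% [55.5–99.7], median 386 UMIs). On the mixed plate, wells with 3 or more endothelial UMIs held a late gene in 0 of 9 cases at 2 days and in 1 of 17 at 13 weeks, and satellite wells in 2 of 20 and 6 of 17. The share of 90.5% in all kept 6-week wells was within the intervals of these groups, and detection of a late gene in a 6-week well is not read here as expression by its cell.

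**Figure D5:**
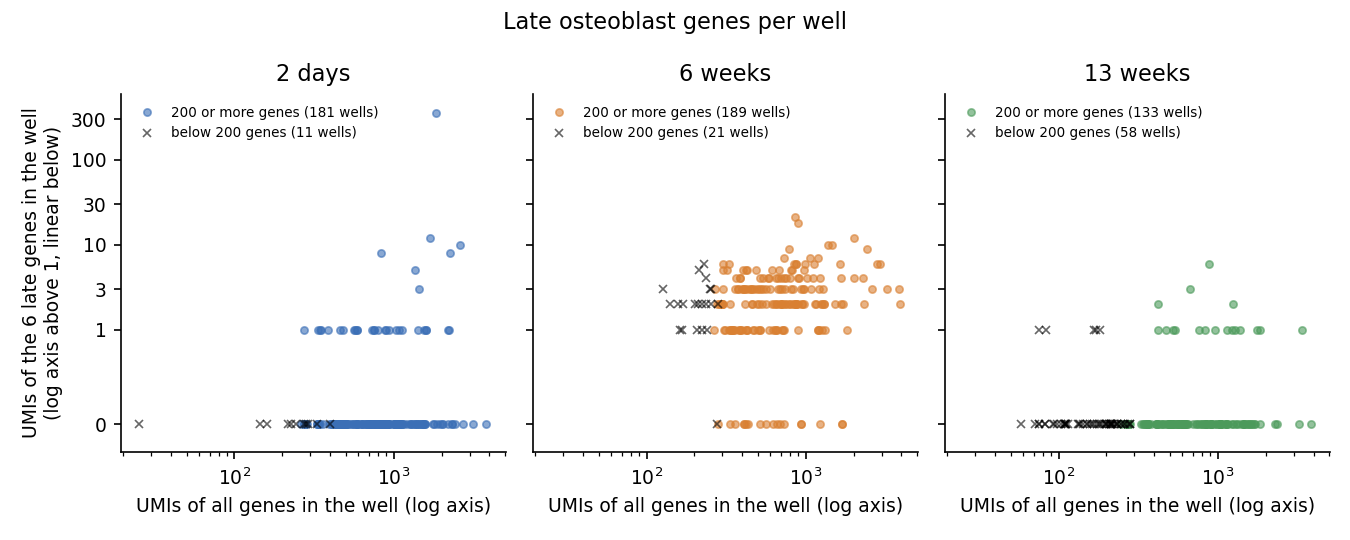
UMIs of the 6 late genes in each well (log axis above 1, linear below) against UMIs of all genes in the well (log axis), for 2 days, 6 weeks and 13 weeks; circles are wells with 200 or more genes and crosses wells with fewer. Most wells sit at 0 at 2 days and 13 weeks with 1 well at 350, whereas 171 of 189 kept wells and 20 of 21 shallow wells lie above 0 at 6 weeks.

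At 6 weeks, most members had few reads behind each UMI. Ibsp and Spp1 had 1.67 and 1.56 reads per UMI in kept 6-week wells, and the sparse genes Runx2, Sp7, Dmp1, Phex and Alpl had 1.33, 1, 1, 1.67 and 2.63, against 6.82 for Bglap, 3.0 for Bglap2 and 7.65 for all genes. At 2 days and 13 weeks Ibsp had 3.7 and 3.5, Spp1 3.30 and 5.36, and Alpl 1.55 and 1.90, against 5.02 and 5.50 for all genes. Bglap had 8.09 and 3.11 there, Bglap2 2.57 and 3.0, and Runx2 4.11 and 12.5 on 9 and 2 UMIs. Among values of 1 UMI, those resting on 1 read were 52 of 62 for Ibsp (83.9%) and 67 of 78 for Spp1 (85.9%) and 11 of 14 for Alpl (78.6%), but 2 of 69 for Bglap (2.90%) and 39.0% over all genes. In the wells of the 6-week plate named for no sample, they were 78.3% for Ibsp, 89.4% for Spp1 and 37.7% over all genes. Reads per UMI in those wells were 6.57 for Ibsp and 8.53 for Spp1, against 6.83 for all genes. On read counts in place of UMIs, the summed late level was 29.4 per 10000 reads at 2 days and 15.2 at 6 weeks, the reverse of the order by UMIs. Without the Bglap-rich well it was 3.69 at 2 days, below 6 weeks again.

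The 6-week plate also held 168 wells that its well list assigned to no sample, with 68.6% of the UMIs of the plate. Late genes came to 427 per 10000 in these wells, and 8435 UMIs of Bglap were counted in 147 of them, up to 853 in 1 well. Reads of Bglap in the kept 6-week wells equaled 0.898% of those in the unnamed wells of the same plate, and those of Ibsp 1.69% and of Spp1 1.48%. The median was 53.0% over the 623 genes with 100 or more UMIs in kept 6-week and unnamed wells together. Which share of the late UMIs in the 6-week wells came from other wells of the plate was not tested. The plates used the same set of 384 well barcodes.

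Other genes of bone matrix followed the late genes only in part. Col1a1 and Col1a2, which encode the chains of type I collagen, and Sparc (osteonectin) were seen in most wells. Col1a1 stood at 69.1 [65.2–73.1] per 10000 at 2 days, 102 [97.2–107] at 6 weeks and 24.0 [21.3–27] at 13 weeks, with 0.348 [0.304–0.396] as the ratio of 13 weeks to 2 days. At 6 weeks it was seen in 98.4% of wells, among them all 15 wells with 3 or more endothelial UMIs, against 4 of 9 such wells at 2 days and 6 of 17 at 13 weeks. Mgp, which encodes the mineralization inhibitor matrix Gla protein, was nearly level, at a ratio of 0.939 [0.870–1.01]. Of the 8 genes on the bone matrix list with 20 or more UMIs at 2 days and 13 weeks, 3 were lower by 2-fold or more at 13 weeks and 0 higher, with a median ratio of 0.567, beside 8.46% of all genes lower and 6.55% higher. On the mineral and phosphate list 1 of 3 was higher (Enpp1, which makes pyrophosphate, 2.70 [1.00–7.99]) and on the bone signaling list 1 of 6 (Cd200, an immune-regulatory surface glycoprotein, 2.03 [1.24–3.37]). Of the other osteogenic transcription factors 1 had enough UMIs (Atf4, 1.45), and both measured genes of the osteocyte list were within 2-fold. Phospho1, Fgf23 and Tnfsf11 were listed without a UMI in kept wells.

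As a description over 503 cells of both plates, the genes whose scaled log counts correlated most with Bglap included Ibsp (Pearson's r = 0.378), Col1a1 (0.335) and Spp1 (0.313), and Alpl correlated most with Pecam1 (0.263). For Bglap, 0 of these 5 genes recurred among its 5 most similar genes within either plate. On the mixed plate Ibsp could not recur, because it was seen in 3 and 2 kept wells there and genes in fewer than 10 were not compared. For Alpl, 2 of 5 recurred within the mixed plate, and Pecam1 was among them, at 0.375, whereas 0 of 5 recurred within the 6-week plate.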

How the data were processed

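Single Tom+ periosteal cells were sorted into 384-well plates and their transcripts sequenced from the 3′ end with a plate-based Drop-seq method. Per the submitters' processing notes, bcl2fastq 2.18.0.12, Picard 2.9.3 and STAR 2.5.4a were used, with the mm10 (GRCm38) genome. The authors counted reads per gene and well, collapsed reads that shared a UMI, and deposited raw UMI counts and raw read counts for each plate, without normalization or removal of wells. The 9 genes, the related gene lists and the marker lists were chosen with earlier results of these data known.

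Wells were assigned to time points by the deposited well list, and the 168 wells it assigns to no sample entered no comparison. Wells with 200 or more genes were kept, with 246 to 3928 UMIs each. UMI counts were used as deposited, summed per time point and expressed per 10000. Genes listed for 1 plate were taken as 0 on the other. Intervals were exact Poisson, Clopper-Pearson or, for ratios, conditional binomial at 95%. They cover counting error only, and a count of 0 was given the limit of 3 counts. Genes were compared between time points from 20 UMIs on, at 2-fold, with no p-value because each time point was 1 pool. Wells were thinned to 300 UMIs at random (seed 0). No wells were removed as doublets. The genes most similar to a member were the 5 with the highest Pearson correlation of ln(1 + UMIs per 10000), among genes seen in 10 or more kept wells. Related genes were named when they had 20 or more UMIs in kept wells or none. Gene positions are from GENCODE M21 and promoters from RefSeq. Calculations used Python 3.11.15, numpy 2.4.6, pandas 2.3.3 and scipy 1.17.1 and were tested on simulated counts. Alternatives varied the gene minimum (100 or 300, or counted on reads), the unit (reads), the wells left out (the Bglap-rich well, the deepest 5%, those over 15% mitochondrial UMIs), the weighting of wells, the genes in the total, the detection minimum, the thinning depth (200 or 500) and the UMI minimum for ratios (10 or 50). Leaving out the Bglap-rich well in counts of genes past 2-fold and in read levels was added after seeing the data.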

Additional observations from a re-analysis of the deposited data

Results flagged for a closer look

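The wells of the 6-week plate that the well list assigns to no sample were used in no comparison, and all 9 genes were counted there above the limit that a count of 0 allows. They held 8435 UMIs of Bglap, 2172 of Bglap2, 2066 of Ibsp, 2093 of Spp1, 228 of Dmp1 and 20 of Phex. Of the early genes, Alpl had 275 UMIs, Runx2 61 and Sp7 35. The levels were 240 per 10000 for Bglap, 7.82 for Alpl, 1.73 for Runx2 and 0.995 for Sp7, over 351800 UMIs in 168 wells with a median of 1159 UMIs. What these wells contained was not tested.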

How the results depend on the processing

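No paired analysis was possible because each time point was 1 pool of mice. Changing the gene minimum (100 or 300 genes, or 200 counted on reads) or leaving out wells over 15% mitochondrial UMIs moved none of the summed levels, shares or gene levels beyond their counting intervals. The summed late level kept the order 6 weeks, 2 days, 13 weeks in every setting run except read counts, which gave 29.4, 15.2 and 1.70 per 10000 at 2 days, 6 weeks and 13 weeks, and 3.69, 15.2 and 1.70 without the Bglap-rich well. The late level at 2 days was 4.31 without that well, 27.4 without the deepest 5% of wells, 14.4 as a mean over wells and 28.1 without mitochondrial genes and Gm26924 in the total. At 6 weeks these last 3 settings gave 38.6, 43.6 and 37.9. The early level was 0.629 at 2 days and 0.534 at 6 weeks on reads, and 0.679 at 2 days without the deepest 5%.

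At 2 days, 6 weeks and 13 weeks, a minimum of 2 UMIs gave shares of 2.21%, 1.59% and 1.5% of wells for early genes, 3.87%, 42.9% and 2.26% for late genes and 0.552%, 1.06% and 0% for both, so the late share was highest at 6 weeks but the early share was not. A minimum of 1 read gave late shares of 30.4%, 98.9% and 25.6%. Thinned to 300 UMIs, the early shares moved to 1.71% and 8.24% at the first 2 time points, the late shares were 9.14%, 61.0% and 6.35%, and those with both 0%, 5.49% and 0%. Thinned to 200, they were 1.10%, 4.76% and 1.5%, then 6.08%, 54.5% and 6.02%, then 0%, 2.65% and 0%. Thinned to 500, the early share was 8.0% at 6 weeks and 1.04% at 13 weeks, the late share 12.4% at 2 days and 77.6% at 6 weeks, and the share with both 4.80% at 6 weeks and 0% at 13 weeks. Without the deepest 5% the share with both at 13 weeks was 0%. Of the genes compared between 13 weeks and 2 days, 155 were higher and 200 lower by 2-fold or more from 20 UMIs on, 548 and 561 from 10 UMIs and 29 and 49 from 50 UMIs. Between 6 weeks and 2 days, 236 were higher and 125 lower from 20 UMIs on, 701 and 446 from 10 and 42 and 25 from 50. Fewer genes entered with a higher minimum, and the cause of the other shifts was not tested. At this depth most detections of a member outside the richest wells rest on 1 UMI, so differences of a few wells between time points were not detectable.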
